A study of Mus musculus with 9 samples.

Results

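The genes of cholesterol synthesis, uptake and efflux were examined in mouse B cells before and after activation. They were chosen by gene symbol, 33 of the 17596 genes for which expression values were deposited, and comprise 19 enzymes of the mevalonate and sterol pathways, 5 genes of the SREBP system, 3 of the LXR system, 2 efflux pumps and 4 genes of transport and storage inside the cell. Expression was given as FPKM, fragments scaled to the length of the gene and the size of the library. All 33 had a mean of 1 FPKM or more over the 9 libraries and were tested among the 10823 genes that passed this filter. The B cells came from the spleen, and their RNA was sequenced on day 0, as naive cells without treatment, or on day 3, after stimulation by 10 μg/ml LPS together with 50 ng/ml IL-4, which induces class switch recombination in vitro. Mb1Cre mice were the control, with 2 libraries on day 0 and 2 on day 3. Mct1f/fMb1Cre mice, in which Cre also removes a floxed segment of the monocarboxylate transporter gene Mct1, gave 2 libraries on day 0 and 3 on day 3. Both genotypes carry Cre under the control of the Mb1 locus, which is active in the B cell lineage, so that the deletion is restricted to this lineage. The labels name no mouse, litter, age or batch, so that p-values measure the spread between these libraries, which may be technical.

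Cholesterol is built from acetyl-CoA through mevalonate, the isoprenoid pyrophosphates and squalene to lanosterol, which a further series of enzymes turns into cholesterol. When sterols are scarce in the endoplasmic reticulum, SCAP escorts the SREBP transcription factors to the Golgi, where they are cleaved and released to raise transcription of these enzymes, whereas INSIG proteins hold the complex back when sterols are plentiful. Oxysterols instead activate the LXR receptors, which raise the genes of cholesterol efflux and of the turnover of lipoprotein receptors, and dividing lymphocytes need sterols for new membrane.

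Mct1, listed as Slc16a1, was examined first. On day 3 it was at 22.6 and 22.9 FPKM in the Mb1Cre libraries and at 10.8, 9.81 and 9.50 FPKM in the Mct1f/fMb1Cre libraries, a log2 fold change of -1.11 (standard error 0.0712, adjusted p = 9.07e-06 from limma). On day 0 it was at 4.33 and 3.80 FPKM in Mb1Cre and at 3.71 and 4.06 FPKM in the libraries labelled Mct1f/fMb1Cre. The day 0 ranges overlapped, and the genotype of these libraries therefore rests on their labels.

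Some libraries stood apart in ways that the groups do not describe. The Y-linked gene Ddx3y was at 31.1 FPKM in Mct1f/fMb1Cre day 0 replicate 1, at 0.02 to 0.24 FPKM in the other 3 day 0 libraries and at 14.7 to 16.9 FPKM in the 5 day 3 libraries. That replicate also had the highest sum over 8 neutrophil markers, 1411 FPKM, with 438.6, 598 and 486 FPKM in the other day 0 libraries. In Mb1Cre B cells the presence of Y-linked transcripts and the day cannot be told apart. In Mct1f/fMb1Cre B cells 23 members were called higher and 7 lower on day 3 without day 0 replicate 1, and 23 and 7 without day 0 replicate 2. Each of these fits leaves 1 library on day 0 of that genotype, which is assumed to vary like those of the other groups. Among the B cell markers, Cd74 was at 6374 to 10929 FPKM and Cd79a at 502 to 1714 FPKM over the 9 libraries.

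Activation raised 23 of the 33 members in both genotypes and lowered 7. Calls needed an adjusted p under 0.05 from limma together with a change of more than 0.5 on the log2(FPKM + 1) scale, which understates the change of genes with low values. Among all 10823 genes, 24.8% were called higher and 33.0% lower in Mb1Cre B cells, and 23.4% and 33.2% in Mct1f/fMb1Cre B cells. The higher genes thus made up 42.9% and 41.4% of the called genes, shares that were 32.0% and 31.7% after scaling to equal totals and 55.4% and 54.9% with median-of-ratios scaling. In all 33 members the 5 day 3 libraries lay outside the range of the 4 day 0 libraries, which held for 81.7% of all genes tested. The plot of the 9 libraries gives every value.

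**Figure D1:**
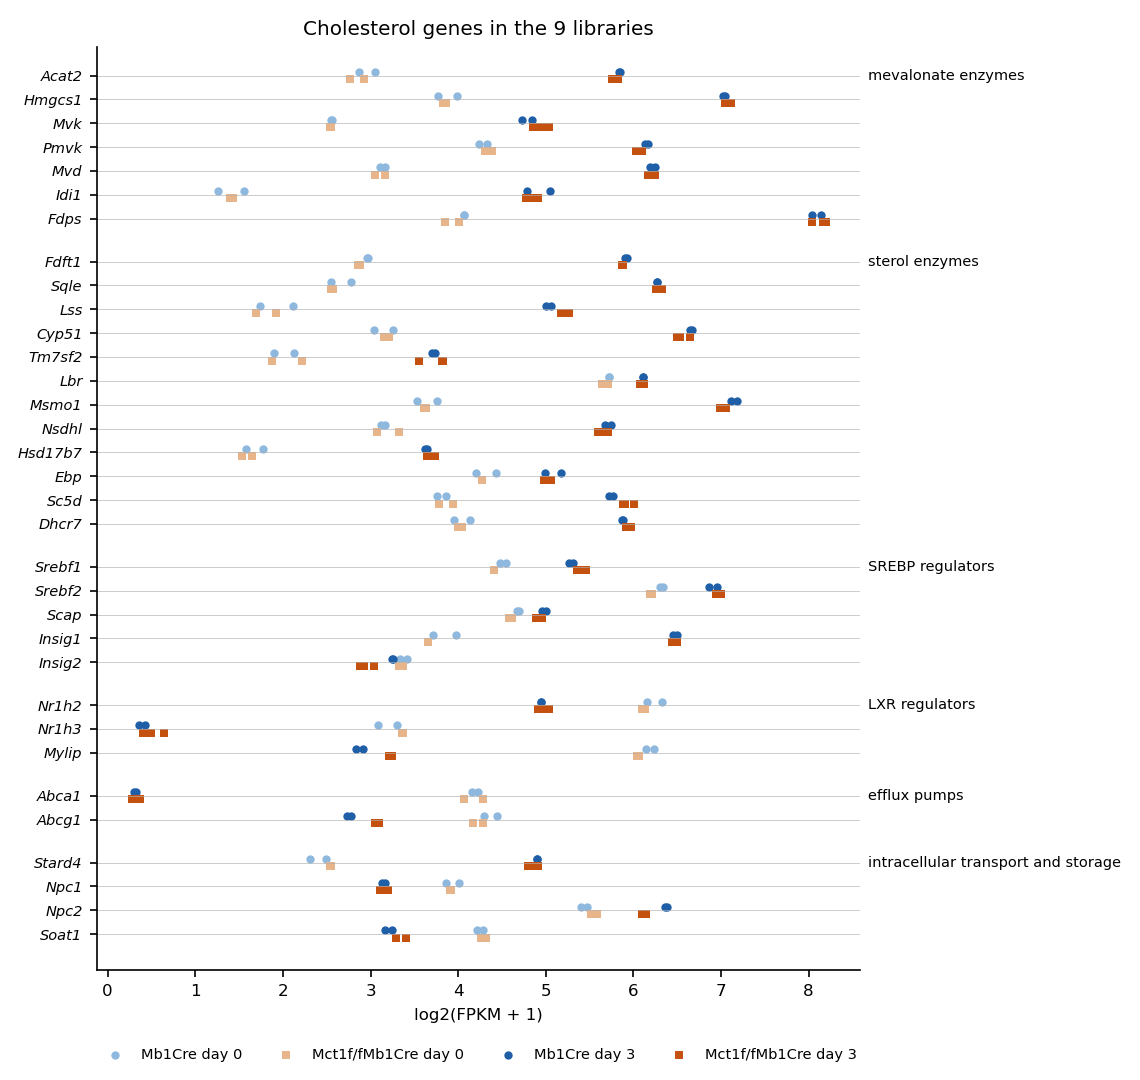
Expression of the 33 cholesterol genes, grouped by role, as log2(FPKM + 1) in each of the 9 libraries. Each point is 1 library, circles are Mb1Cre, squares are Mct1f/fMb1Cre, pale points are day 0 and dark points day 3. The dark points of the enzymes lie to the right of the pale ones, and those of the LXR regulators and efflux pumps to the left.

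The 19 synthesis enzymes were higher after activation as a group. In both genotypes 18 of them were called higher and 0 lower, and their median log2 fold change was 2.89 in Mb1Cre and 2.94 in Mct1f/fMb1Cre B cells, beside -0.12 and -0.14 over all genes tested. Their FPKM summed to 212.4 and 219.9 in the Mb1Cre and to 209.6 and 212.5 in the Mct1f/fMb1Cre libraries on day 0. On day 3 the sums were 1333 and 1372 in Mb1Cre and 1346, 1356 and 1357 in Mct1f/fMb1Cre. Every sum of day 3 was thus above every sum of day 0, while the genotypes overlapped on day 3.

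All 7 mevalonate enzymes rose, from Acat2, which joins acetyl-CoA units, to Fdps, which makes farnesyl pyrophosphate. Fdps had the largest rise of the 33 members on the log2(FPKM + 1) scale. By the ratio of mean FPKM, Idi1 rose 17.6-fold and Fdps 17.2-fold in Mb1Cre, whereas Fdps rose 19.7-fold and Idi1 16.6-fold in Mct1f/fMb1Cre. Fdps was at 15.8 and 15.8 FPKM in Mb1Cre and at 15.1 and 13.5 FPKM in Mct1f/fMb1Cre on day 0. After activation it reached 282 and 263 FPKM in Mb1Cre and 262, 292 and 287 FPKM in Mct1f/fMb1Cre. It rose by 4.02 on the log2 scale in Mb1Cre (standard error 0.0653, limma adjusted p = 2.91e-12) and by 4.20 in Mct1f/fMb1Cre, and Fdps was the most abundant of the 19 enzymes in every day 3 library. Idi1, the isomerase that supplies one of its substrates, was low in naive cells, at 1.40 and 1.93 FPKM in Mb1Cre and 1.69 and 1.64 FPKM in Mct1f/fMb1Cre. After activation Idi1 reached 32.0 and 26.6 FPKM in Mb1Cre and 29.2, 26.5 and 27.2 FPKM in Mct1f/fMb1Cre. The log2 fold changes of Idi1 were 3.51 and 3.42, with no overlap between the days. Hmgcs1, which makes HMG-CoA, was at 14.8 and 12.7 FPKM in Mb1Cre and 13.2 and 13.5 FPKM in Mct1f/fMb1Cre on day 0. On day 3 Hmgcs1 was at 129 and 131 FPKM in Mb1Cre and at 138, 132 and 131 FPKM in Mct1f/fMb1Cre. It rose by 3.15 and 3.23 on the log2 scale. The decarboxylase Mvd rose by 3.08 and 3.11, Acat2 by 2.89 and 2.94, and the kinases Mvk (2.23 and 2.41) and Pmvk (1.86 and 1.74) by less.

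Of the 12 enzymes that lead from farnesyl pyrophosphate to cholesterol, 11 rose in both genotypes. Sqle, the epoxidase that acts on squalene, was at 5.84 and 4.85 FPKM in Mb1Cre and 4.86 and 4.96 FPKM in Mct1f/fMb1Cre on day 0. Activated cells had 75.9 and 76.1 FPKM in Mb1Cre and 79.5, 75.7 and 76.5 FPKM in Mct1f/fMb1Cre. Its log2 fold changes were 3.61 (standard error 0.0672, adjusted p = 5.24e-12 from limma) and 3.73. Lss, which closes the rings to lanosterol, was at 3.34 and 2.35 FPKM in Mb1Cre and 2.80 and 2.24 FPKM in Mct1f/fMb1Cre on day 0, and rose by 3.10 and 3.40. On day 3 it was at 32.4 and 31.0 FPKM in Mb1Cre and at 35.5, 35.0 and 37.4 FPKM in Mct1f/fMb1Cre, so that the genotypes did not overlap, but the difference on day 3 was not significant (log2 fold change 0.18, adjusted p = 0.284 from limma). Cyp51, the lanosterol demethylase, rose from 8.58 and 7.21 FPKM to 101 and 99.2 FPKM in Mb1Cre and from 8.24 and 7.92 FPKM to 99.0, 91.7 and 89.5 FPKM in Mct1f/fMb1Cre. Msmo1, which removes the next methyl groups, rose from 12.5 and 10.5 FPKM to 144 and 138 FPKM in Mb1Cre and from 11.4 and 11.2 FPKM to 132, 126 and 129 FPKM in Mct1f/fMb1Cre. In both genes the days were far apart and the genotypes differed little beside this change. On day 3 every Mct1f/fMb1Cre library lay below both Mb1Cre libraries in Cyp51 and in Msmo1. These differences were not significant either (log2 fold changes -0.10 and -0.13, adjusted p = 0.354 and 0.200 from limma). Fdft1, the squalene synthase, rose by 2.94 and 3.01 on the log2 scale. The other late enzymes had smaller estimates, with Nsdhl at 2.57 and 2.45, Hsd17b7 at 1.96 and 2.11, Sc5d at 1.93 and 2.07, Dhcr7 at 1.83 and 1.93, Tm7sf2 at 1.71 and 1.68 and Ebp at 0.77 and 0.76.

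Lbr was the enzyme without a call. It encodes a protein of the inner nuclear membrane that binds lamin B and also has sterol reductase activity, which it shares with Tm7sf2. Lbr was the most abundant of the 19 enzymes on day 0, at 51.8 and 52.0 FPKM in Mb1Cre and 49.0 and 51.5 FPKM in Mct1f/fMb1Cre. Activated cells had 67.9 and 68.2 FPKM in Mb1Cre and 68.4, 66.4 and 68.0 FPKM in Mct1f/fMb1Cre. Its log2 fold changes of 0.38 and 0.42 passed the adjusted p (5.10e-06 and 1.03e-06 from limma) but not the limit of 0.5, and reached 0.59 and 0.64 with median-of-ratios scaling. Tm7sf2, by contrast, rose from 3.35 and 2.74 FPKM to 12.3 and 12.1 FPKM in Mb1Cre.

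**Figure D2:**
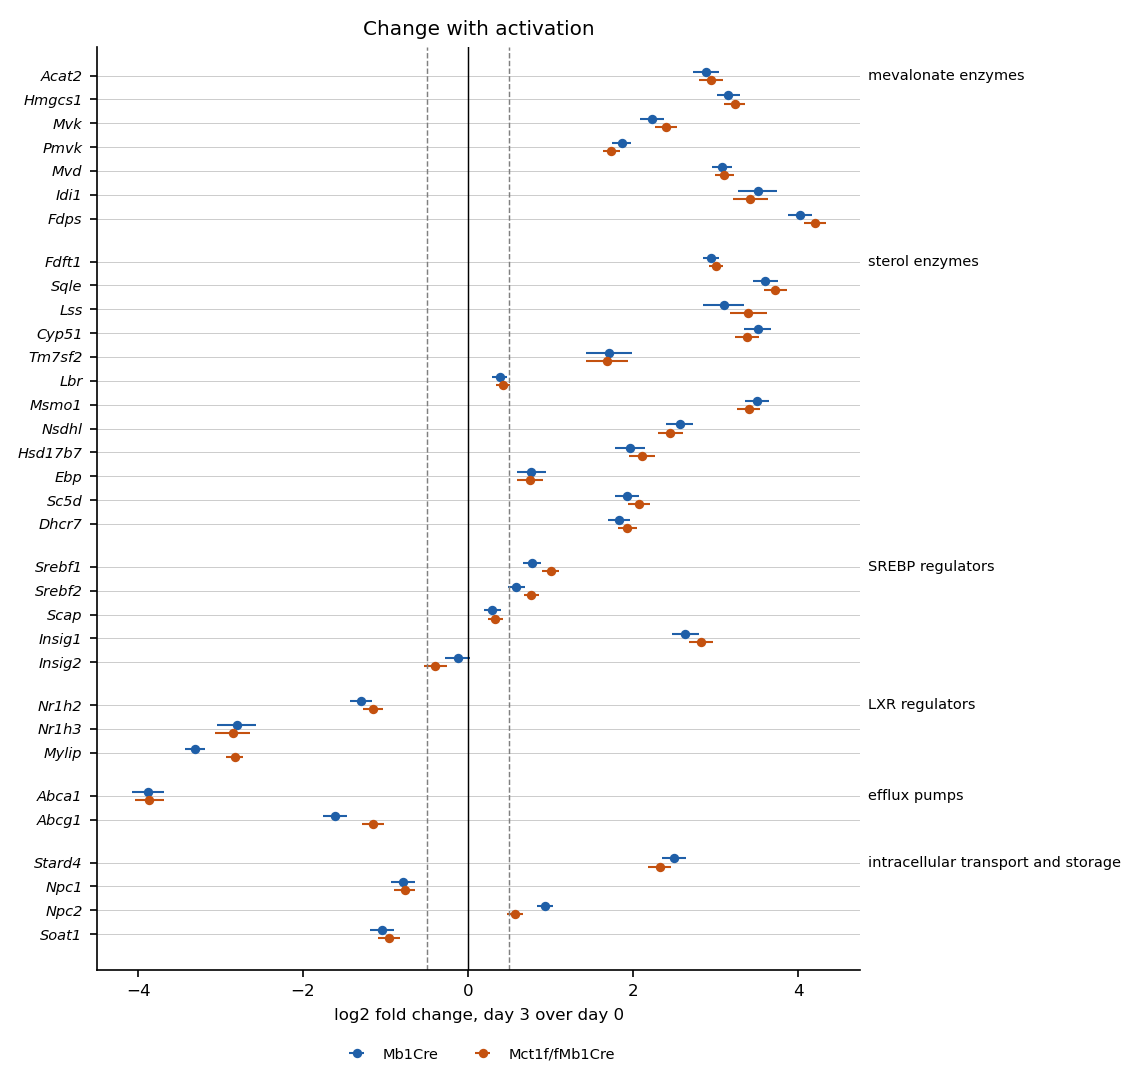
Log2 fold change of each member on day 3 over day 0, in Mb1Cre (blue) and Mct1f/fMb1Cre (orange) B cells, with 95% confidence intervals from limma. Dashed lines mark the limit of 0.5 in size. The enzymes lie between 0.38 and 4.20, and the LXR regulators and efflux pumps between -3.88 and -1.15.

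The promoters of the synthesis enzymes, of which Lbr was the only one not called higher, were compared by sequence. SREBPs bind sterol regulatory elements and are known to act with NF-Y, which binds CCAAT boxes, and with Sp1, which binds GC boxes. The 250 bases before the start of the gene (RefSeq, GRCm38.p6) were searched on both strands. Members had up to 3 such windows, and a gene was counted if any of its windows matched. CCAAT was found in 15 of the 16 enzymes with an entry (93.8%) and in 41.6% of the 8790 tested genes with one. The core TCACNCCA of the sterol regulatory element, which can share its last letters with CCAAT, was found in 2 of the 16 enzymes (12.5%), Hmgcs1 and Msmo1, and in 3.92% of the tested genes. The GC box GGGCGG was found in 15 of the 16 enzymes (93.8%) and in 63.1% of the tested genes. Among the 11 other members with an entry, which include genes that fell, CCAAT was found in 7 (63.6%), the core in 1 (9.09%) and the GC box in 8 (72.7%). A match is a description of these letters and shows no binding. The last 180 bases before the start of the first entry are shown, 5′ to 3′ on the strand of the gene. They are given for the 6 members with an entry that rose most in Mb1Cre B cells. Capitals mark CCAAT, or ATTGG where the motif lies on the other strand, and the core TCACNCCA.
Cyp51, chr5:4104698-4104877, minus strand: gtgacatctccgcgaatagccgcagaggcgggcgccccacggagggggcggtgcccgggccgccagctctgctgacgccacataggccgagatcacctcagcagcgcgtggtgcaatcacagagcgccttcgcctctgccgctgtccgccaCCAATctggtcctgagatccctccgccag
Idi1, chr13:8885426-8885605, plus strand: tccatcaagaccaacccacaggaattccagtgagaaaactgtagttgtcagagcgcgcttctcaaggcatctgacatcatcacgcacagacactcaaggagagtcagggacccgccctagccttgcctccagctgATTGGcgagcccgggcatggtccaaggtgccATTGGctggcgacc
Msmo1, chr8:64733579-64733758, minus strand: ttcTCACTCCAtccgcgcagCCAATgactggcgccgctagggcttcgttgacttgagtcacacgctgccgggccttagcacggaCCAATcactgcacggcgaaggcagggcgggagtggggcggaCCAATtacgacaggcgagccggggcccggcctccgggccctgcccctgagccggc
Hmgcs1, chr13:119690171-119690350, plus strand: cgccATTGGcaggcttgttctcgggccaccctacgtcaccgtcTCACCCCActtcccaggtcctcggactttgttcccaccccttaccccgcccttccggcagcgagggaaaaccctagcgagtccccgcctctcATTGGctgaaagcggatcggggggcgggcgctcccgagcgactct
Lss, chr10:76531425-76531604, plus strand: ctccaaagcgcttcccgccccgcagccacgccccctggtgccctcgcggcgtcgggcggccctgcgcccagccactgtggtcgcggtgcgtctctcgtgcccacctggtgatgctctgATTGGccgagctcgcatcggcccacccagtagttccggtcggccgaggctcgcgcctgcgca
Mvd, chr8:122443423-122443602, minus strand: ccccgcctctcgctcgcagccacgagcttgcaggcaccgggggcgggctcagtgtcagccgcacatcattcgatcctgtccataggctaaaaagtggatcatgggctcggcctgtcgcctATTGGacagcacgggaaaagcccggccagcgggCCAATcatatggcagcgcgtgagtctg
Hmgcs1 and Msmo1 carry both kinds of capitals and the other 4 promoters CCAAT alone, with 3 copies in Msmo1 and 2 copies in Idi1, Hmgcs1 and Mvd. Their log2 fold changes in Mb1Cre lay between 3.08 for Mvd and 3.51 for Idi1, Cyp51 and Msmo1.

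The genes that control the SREBP system changed unevenly. Insig1, itself a target of SREBP, rose most, from 14.7 and 12.1 FPKM to 89.7 and 86.3 FPKM in Mb1Cre and from 11.6 and 11.6 FPKM to 89.7, 86.2 and 88.3 FPKM in Mct1f/fMb1Cre. Its log2 fold changes were 2.63 (standard error 0.0727, adjusted p = 5.92e-11 from limma) and 2.82. Insig2, its paralogue, was not called in Mb1Cre, with 9.64 and 9.14 FPKM in naive and 8.53 and 8.49 FPKM in activated cells (log2 fold change -0.13, adjusted p = 0.102 from limma). In Mct1f/fMb1Cre it was at 9.32 and 9.02 FPKM on day 0 and at 6.60, 7.24 and 6.36 FPKM on day 3. The log2 fold change of -0.40 there passed the adjusted p (1.01e-04 from limma) but not the limit, except after scaling to equal totals (-0.56). The sign of the change of Insig2 in Mb1Cre depended on the scaling (-0.31 to 0.06).

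Srebf2, the main regulator of cholesterol synthesis, was the most abundant of the 5. It rose from 80.1 and 78.1 FPKM to 115 and 123 FPKM in Mb1Cre and from 73.2 and 72.2 FPKM to 122, 124 and 127 FPKM in Mct1f/fMb1Cre. The log2 fold changes were 0.58 and 0.77, and the first fell to 0.38 and lost its call after scaling to equal totals, and it was not called with quantile normalization either. Srebf1, whose products act more on fatty acid synthesis, rose from 22.4 and 21.3 FPKM to 37.6 and 38.6 FPKM in Mb1Cre (log2 fold change 0.77) and from 20.2 and 20.2 FPKM to 39.8, 41.9 and 43.0 FPKM in Mct1f/fMb1Cre (1.00). Scap, the escort protein, was at 24.5 and 25.0 FPKM in naive and 30.1 and 31.0 FPKM in activated Mb1Cre cells, and at 23.5 and 22.9 FPKM and 28.6, 29.6 and 30.1 FPKM in Mct1f/fMb1Cre. Its changes of 0.29 and 0.33 passed the adjusted p but not the limit, although the days did not overlap. Over the alternatives the change of Scap ranged from 0.097 at equal totals (adjusted p = 0.114 from limma) in Mb1Cre to 0.54 with median-of-ratios scaling in Mct1f/fMb1Cre, where it was called.

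All 5 genes of the LXR system and of efflux fell in both genotypes, with a median log2 fold change of -2.81 in Mb1Cre and -2.83 in Mct1f/fMb1Cre B cells. Abca1, the pump that loads cholesterol onto lipid-poor apolipoprotein, was at 16.9 and 17.6 FPKM in Mb1Cre and at 18.5 and 15.8 FPKM in Mct1f/fMb1Cre on day 0. In activated cells Abca1 was at 0.23 and 0.25 FPKM in Mb1Cre and at 0.23, 0.21 and 0.29 FPKM in Mct1f/fMb1Cre. The mean of day 0 was 71.9 times that of day 3 in Mb1Cre and 70.5 times in Mct1f/fMb1Cre, and on the log2(FPKM + 1) scale the gene fell by 3.88 (standard error 0.0888, adjusted p = 1.68e-11 from limma) and 3.86. Nr1h3, which encodes LXRα, was at 7.50 and 8.88 FPKM in Mb1Cre and 9.25 and 9.38 FPKM in Mct1f/fMb1Cre on day 0. After activation 0.34 and 0.28 FPKM remained in Mb1Cre and 0.32, 0.56 and 0.41 FPKM in Mct1f/fMb1Cre. Both genes were thus near 0 in every activated library.

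Nr1h2, which encodes LXRβ, the form made by most cells, kept a higher level. It fell from 70.3 and 79.0 FPKM to 29.9 and 29.7 FPKM in Mb1Cre (log2 fold change -1.29) and from 69.2 and 67.5 FPKM to 29.1, 29.8 and 31.8 FPKM in Mct1f/fMb1Cre (-1.15). Mylip, an LXR target that encodes a ubiquitin ligase for lipoprotein receptors, was at 69.5 and 74.3 FPKM in Mb1Cre and 66.1 and 64.9 FPKM in Mct1f/fMb1Cre on day 0. On day 3 Mylip was at 6.13 and 6.56 FPKM in Mb1Cre and at 8.23, 8.36 and 8.48 FPKM in Mct1f/fMb1Cre. Its log2 fold changes were -3.31 and -2.83. Abcg1, the pump that exports cholesterol to high-density lipoprotein, was at 18.6 and 20.8 FPKM in Mb1Cre and 18.4 and 17.0 FPKM in Mct1f/fMb1Cre on day 0. On day 3 Abcg1 was at 5.65 and 5.88 FPKM in Mb1Cre and at 7.32, 7.58 and 7.36 FPKM in Mct1f/fMb1Cre, with log2 fold changes of -1.61 and -1.15. In Mylip and Abcg1 the 3 Mct1-deficient libraries of day 3 lay above both control libraries, and both genes stayed above 5 FPKM where Abca1 and Nr1h3 were below 1 FPKM.

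Markers of other cells fell with these genes. The 13 markers of macrophages and monocytes, cells in which Abca1, Abcg1 and Nr1h3 are well expressed, were all tested, and in Mb1Cre all 13 were called lower on day 3, in Mct1f/fMb1Cre 12 were. Their sums in naive cells were 1231 and 1390.1 FPKM in Mb1Cre and 1589.98 and 1373 FPKM in Mct1f/fMb1Cre. Activated cells had sums of 24.8 and 23.0 FPKM in Mb1Cre and of 35.3, 35.1 and 42.0 FPKM in Mct1f/fMb1Cre. Lyz2, the most abundant, was at 614 to 809 FPKM on day 0 and at 10.0 to 20.4 FPKM on day 3. None of the 13 was listed at 0, but Vcam1, a marker of red pulp macrophages, was at 0.03 to 0.07 FPKM in every day 3 library. The part of such cells in the fall of the LXR and efflux genes was not tested. In bulk samples, fewer cells of a type and less RNA per cell cannot be told apart.

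**Figure D3:**
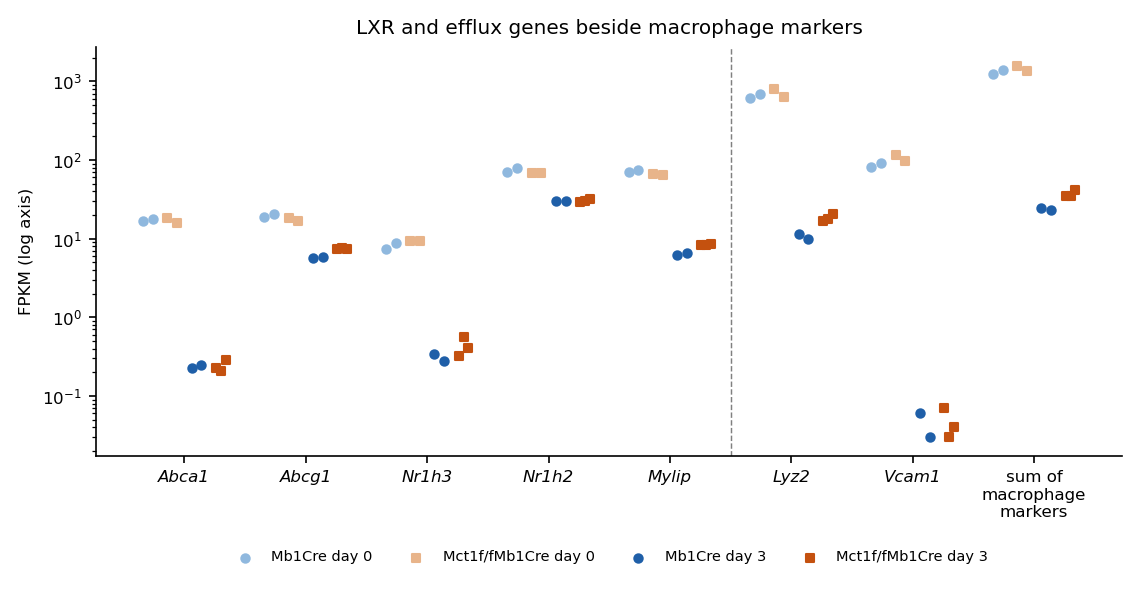
FPKM on a log axis of the 5 LXR and efflux genes (left of the dashed line) and of the macrophage markers Lyz2, Vcam1 and the sum of 13 markers (right). Each point is 1 library. Abca1 and Nr1h3 fall below 1 FPKM on day 3 as Vcam1 does, while Nr1h2, Mylip and Abcg1 stay above 5 FPKM.

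The 4 genes of transport and storage went both ways. Stard4, which carries sterols between membranes and is a target of SREBP, rose by 2.50 in Mb1Cre and 2.32 in Mct1f/fMb1Cre on the log2 scale, from 3.95 to 4.85 FPKM over the day 0 libraries to 26.8 to 29.1 FPKM over those of day 3. Npc2, the soluble protein that binds cholesterol in the lysosome, rose from 41.1 and 43.4 FPKM to 82.3 and 80.9 FPKM in Mb1Cre (0.93) and from 47.0 and 44.8 FPKM to 69.6, 68.5 and 67.5 FPKM in Mct1f/fMb1Cre (0.57). The second change was not called after scaling to equal totals (0.39) or with quantile normalization. Npc1, its partner in the lysosomal membrane, fell by 0.79 and 0.77, from 13.6 to 15.1 FPKM to 7.63 to 8.22 FPKM. Soat1, which esterifies cholesterol for storage, was at 18.5 and 17.5 FPKM in Mb1Cre and 19.0 and 18.1 FPKM in Mct1f/fMb1Cre on day 0. On day 3 Soat1 was at 8.48 and 7.97 FPKM in Mb1Cre and 9.63, 8.78 and 8.81 FPKM in Mct1f/fMb1Cre, with log2 fold changes of -1.04 and -0.96. The partners of lysosomal export thus moved in opposite directions in both genotypes.

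None of the 33 members was called between the labelled genotypes by these criteria. On day 3, when 2.42% of all genes tested were called between the genotypes by limma, 0 of 33 members were, and 7 had an unadjusted p under 0.05, as did 3142 of the 10823 genes. On day 0 the counts were 0 of 33 beside 0.277% of all genes, with 5 members and 1269 genes at an unadjusted p under 0.05. The change with activation differed between the genotypes in 0 of 33 members beside 3.23% of all genes, with 6 members and 2745 genes at an unadjusted p under 0.05. On day 3 the libraries of the genotypes did not overlap in 16 members, 10 of them enzymes, a share close to the 47.1% of all genes tested. The log2 differences of the 19 enzymes on day 3 lay between -0.13 for Msmo1 and 0.19 for Sc5d, with a median of -0.0033, and the 95% confidence interval that reached farthest from 0 among them, that of Lss, ran from -0.05 to 0.40. The interval of Fdps ran from -0.09 to 0.17, that of Sqle from -0.11 to 0.16, that of Srebf2 from -0.03 to 0.15 and that of Insig1 from -0.15 to 0.15.

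**Figure D4:**
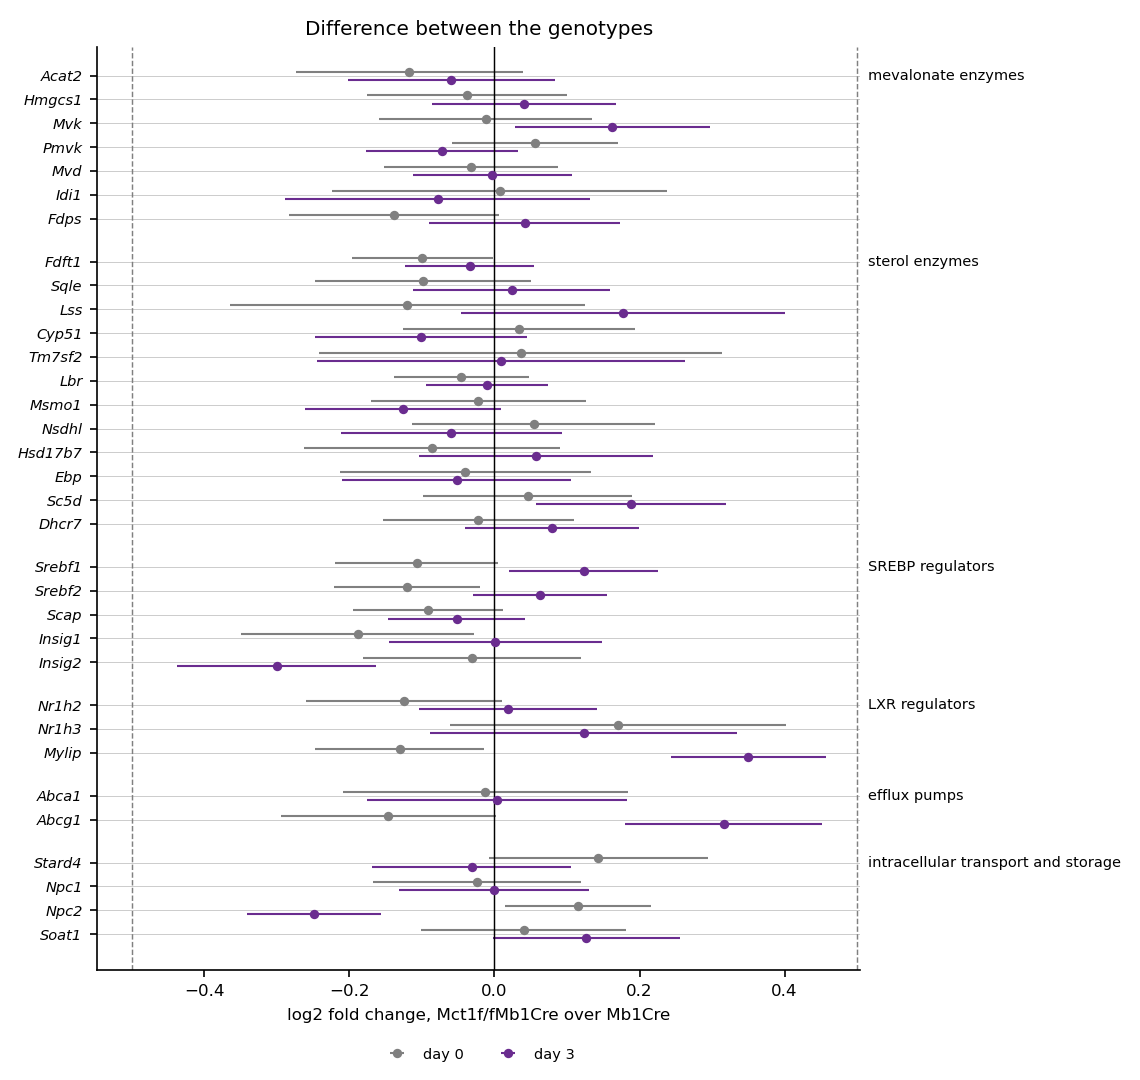
Log2 fold change of each member in Mct1f/fMb1Cre over Mb1Cre B cells on day 0 (grey) and day 3 (purple), with 95% confidence intervals from limma. Dashed lines mark the limit of 0.5 in size. No estimate reaches a dashed line, and on day 3 Mylip and Abcg1 lie to the right of 0 and Insig2 and Npc2 to the left.

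Without the limit on the fold change, 4 members passed the adjusted p of limma on day 3, 2 above and 2 below the control, beside 15.2% of all genes tested. Mylip was 1.32 times as high (log2 fold change 0.35, standard error 0.0483, adjusted p = 9.07e-04) and Abcg1 1.29 times (0.32, standard error 0.0611, adjusted p = 0.00625). Npc2 was at 0.840 of the control (-0.25, standard error 0.0415, adjusted p = 0.00267) and Insig2 at 0.791 (-0.30, standard error 0.0620, adjusted p = 0.00883). With the replicate number as a block, Insig2 did not pass (adjusted p = 0.0947 from limma). In each of the 4 genes all 3 Mct1-deficient libraries lay on one side of both control libraries. On day 0 the estimates were -0.13 for Mylip, -0.15 for Abcg1, 0.12 for Npc2 and -0.03 for Insig2, and none passed the adjusted p (0.370 to 0.900 from limma). The interaction of genotype and day passed it in Mylip (0.48, adjusted p = 0.00356), Abcg1 (0.46, adjusted p = 0.0120) and Npc2 (-0.36, adjusted p = 0.00620), beside 9.42% of all genes, and not in Insig2 (-0.27, adjusted p = 0.0960). Mylip and Abcg1 also passed the limit in the interaction with a pseudocount of 0.1 or without Mb1Cre day 0 replicate 1, where the 1 library left in that group is assumed to vary like those of the other groups. Abcg1 and Insig2 lost the adjusted p on day 3 without Mb1Cre day 3 replicate 1 (0.0661 and 0.0701 from limma), and Insig2 also without replicate 2 (0.0601), and the interaction of Abcg1 lost it without Mb1Cre day 3 replicate 1 (0.0527), fits that likewise leave 1 library in a group. Of the LXR and efflux genes that did not pass, Abca1 differed by 0.0034 (95% confidence interval -0.18 to 0.18), Nr1h3 by 0.12 (-0.09 to 0.34) and Nr1h2 by 0.018 (-0.10 to 0.14). On the same day the macrophage markers Lyz2 (log2 fold change 0.71), Adgre1 (0.68) and Marco (0.84) were called higher in Mct1-deficient B cells, all 13 markers had positive estimates, and their part in Mylip and Abcg1 was not tested.

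**Figure D5:**
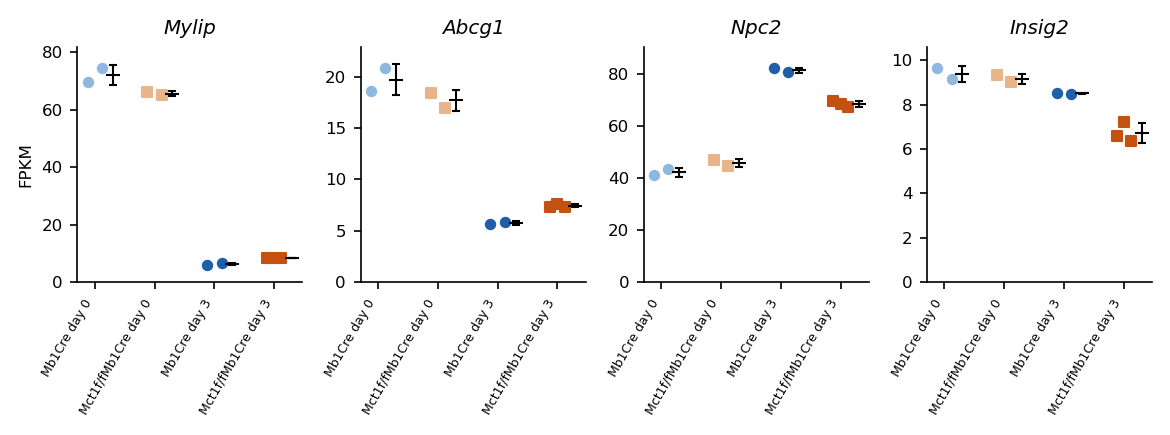
FPKM of Mylip, Abcg1, Npc2 and Insig2, the members with the smallest p between the genotypes on day 3, in each library (points) with the mean and SD of each group (black). All axes start at 0. On day 3 the 3 Mct1f/fMb1Cre libraries lie above both Mb1Cre libraries in Mylip and Abcg1 and below them in Npc2 and Insig2.

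A wider set of 58 genes of the same pathways, in 4 lists, placed these members in context. Of the 55 that passed the filter, 13 were called higher and 22 lower in Mb1Cre B cells, with a median log2 fold change of -0.28, and 12 and 22 in Mct1f/fMb1Cre B cells, with -0.30. Over all genes tested 24.8% were higher and 33.0% lower in Mb1Cre and 23.4% and 33.2% in Mct1f/fMb1Cre, and the counts of these lists are given as a description beside those shares. Among 14 genes of SREBP processing and sterol-regulated degradation, 2 rose and 4 fell in Mb1Cre. Sec24d, a coat protein of vesicles that leave the endoplasmic reticulum, rose by 1.15 (3.63 to 9.22 FPKM) and the ubiquitin ligase Rnf145 fell by 1.31 (60.5 to 23.8 FPKM). In Mct1f/fMb1Cre 1 gene of this list rose and 4 fell. Of 13 genes of the prenyl, dolichol and ubiquinone branches, which draw on the same isoprenoids, 6 rose and 1 fell in Mb1Cre, and 6 and 2 in Mct1f/fMb1Cre. Pdss1, which makes the side chain of ubiquinone, rose by 1.40 (3.21 to 10.1 FPKM) and the methyltransferase Icmt fell by 0.70 (15.2 to 8.97 FPKM). No gene of these branches reached the change of Hmgcs1 or Fdps.

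Sterol carriers and lysosomal genes mostly fell. Of 17 genes, 2 rose and 10 fell in Mb1Cre, and 2 and 10 in Mct1f/fMb1Cre. Tmem97, a sterol-regulated membrane protein that binds NPC1, was the exception in size, with a rise of 2.86 in Mb1Cre (6.38 to 52.5 FPKM) and 2.54 in Mct1f/fMb1Cre. Gramd1a, which moves cholesterol from the plasma membrane to the endoplasmic reticulum, fell by 1.56 in Mb1Cre (84.7 to 28.2 FPKM). Of 14 genes of LXR partners, lipoprotein receptors and oxysterol enzymes, 11 were tested, of which 3 rose and 7 fell in Mb1Cre and 3 and 6 in Mct1f/fMb1Cre. Cyp27a1, a sterol hydroxylase abundant in macrophages, fell by 4.55 on the log2 scale (24.3 to 0.08 FPKM), alongside the macrophage markers above. Gpr183, a receptor for oxysterols that guides B cells, rose by 1.00 (27.8 to 56.7 FPKM).

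Between the genotypes, 1 of the 55 genes was called on day 3, beside 2.42% of all genes tested. This was Pltp, which encodes the phospholipid transfer protein and is a target of LXR. It was at 21.6 and 16.1 FPKM in Mb1Cre and 17.7 and 15.6 FPKM in Mct1f/fMb1Cre on day 0, with overlap. On day 3 it was at 14.8 and 15.0 FPKM in Mb1Cre and at 27.7, 25.6 and 25.2 FPKM in Mct1f/fMb1Cre. The genotypes differed by 0.77 on the log2 scale (standard error 0.0999, adjusted p = 6.27e-04 from limma). The 13 macrophage markers had higher sums in the same libraries, as given above, and their part in Pltp was not tested. Erlin1, a membrane protein of sterol-regulated degradation, was at 11.7 and 12.7 FPKM in Mb1Cre and 7.75, 8.23 and 9.07 FPKM in Mct1f/fMb1Cre on day 3. Stard5, a cytosolic sterol carrier, was at 13.0 and 11.4 FPKM in Mb1Cre and 8.96, 8.38 and 9.09 FPKM in Mct1f/fMb1Cre. Both were lower in every Mct1-deficient library of day 3. The log2 fold changes were -0.4995 for Erlin1, just under the limit of 0.5 in size, and -0.43 for Stard5. Among the comparisons of genotype, both were called in the interaction of genotype and day alone. On day 0 Erlin1 was at 12.75 and 12.82 FPKM in Mb1Cre and at 13.87 and 13.53 FPKM in Mct1f/fMb1Cre. Stard5 was at 14.66 and 15.44 FPKM in Mb1Cre and at 17.18 and 15.44 FPKM in Mct1f/fMb1Cre on that day.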

How the data were processed

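RNA sequencing was carried out on B cells of Mb1Cre and Mct1f/fMb1Cre mice. The authors deposited FPKM, fragments scaled to gene length and library size, for 17596 genes and 9 libraries. The submitters' processing notes name Bowtie2 and GRCm38 (mm10), without versions, and use of strand is not given in the sources used here. Read counts were not analysed here and the depth is unknown. No counting interval was therefore given. From the deposited FPKM, log2(FPKM + 1) was taken with no added normalization. The 10823 genes that averaged 1 FPKM or more entered a limma model (version 3.58.1, R 4.3.3) of the 4 groups, whose moderated variances followed the mean, and p-values were adjusted by the method of Benjamini and Hochberg. The call threshold was 0.05 for the adjusted p, with a change of more than 0.5 on the log2 scale. The procedure was tested on simulated data, and tables and figures were made with Python 3.11.15 and matplotlib 3.10.9.

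The members, the lists of pathway genes and of markers and the motifs were chosen with earlier results of these data known. Values in every library were given for the 6 called members with the largest change in each direction in each genotype, for the SREBP, LXR and efflux genes and for the 4 members with the smallest p between the genotypes on day 3. Of each pathway list the called gene with the largest change in each direction in Mb1Cre was named, and every gene called between the genotypes or in the interaction. The values of Lbr, Tm7sf2, Stard4 and Npc1 lie outside this rule and were added after they were seen. Promoter sequences are those of RefSeq for GRCm38.p6, with entries for 27 of the 33 members. In the GENCODE annotation of GRCm38, exons of Fdft1 overlap those of Ctsb on the other strand by 774 bases, and Srebf1, Npc1 and Cyp51 overlap other expressed genes by 109 to 192 bases, so that their values are uncertain if strand was not used. Scap, Hmgcs1, Lss, Idi1 and Npc1 also overlap genes on the other strand, by 785, 557, 381, 323 and 90 bases. Those genes have no deposited values, so that their expression is unknown. Fdps shares 1124 bases with the predicted gene Gm43738 on its own strand, and Tm7sf2 14 bases with Vps51. As alternatives, the pseudocount was set to 0.1 or 5, the filter was dropped or raised to 5 FPKM, and libraries were scaled to equal totals, by the median of ratios or by quantiles. Further fits used only the groups compared, the replicate number as a block, variances without a trend, limits of 1 or 0 on the log2 change, and the omission of each single library. A crossed pairing was added after seeing the data.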

Additional observations from a re-analysis of the deposited data

Results flagged for a closer look

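By the interaction term of limma, the difference between Mct1f/fMb1Cre and Mb1Cre was not the same on both days in 3 of the 33 members at the adjusted p. All 3 were below the limit of 0.5 in size, and their share was close to the 9.42% of all genes tested. The interaction was 0.48 for Mylip (adjusted p = 0.00356), 0.46 for Abcg1 (adjusted p = 0.0120) and -0.36 for Npc2 (adjusted p = 0.00620). Without Mb1Cre day 3 replicate 1 the adjusted p of Abcg1 was 0.0527. The estimates on day 0 and day 3 had opposite signs in all 3 genes. Mylip and Abcg1 were slightly lower on day 0 and higher on day 3 in the libraries labelled Mct1f/fMb1Cre, and Npc2 the reverse, and none of the day 0 estimates was significant.

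Among the other pathway genes the interaction was called in 3 of 55, beside 3.23% of all genes tested. It was 0.93 for Pltp (adjusted p = 0.00490 from limma), -0.59 for Erlin1 (adjusted p = 0.00536) and -0.54 for Stard5 (adjusted p = 0.0103). Labels alone give the genotype of the day 0 libraries, and 1 of the libraries there, Mct1f/fMb1Cre replicate 1, differed from the others in Y-linked and neutrophil genes. No group held 4 libraries, so that single libraries far from their group were not tested for.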

How the results depend on the processing

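No member changed its direction among called results under any alternative. In both genotypes the members called higher numbered 22 to 25 and those called lower 6 to 8 under the alternatives, except at a log2 limit of 1, with 19 higher and 6 lower in Mb1Cre and 20 and 5 in Mct1f/fMb1Cre. The median log2 fold change of the 19 enzymes in Mb1Cre was 3.04 and 2.23 with pseudocounts of 0.1 and 5, 2.70 at equal totals, 3.08 with median-of-ratios scaling, 2.96 with quantile normalization and 2.79 to 2.95 when single libraries were left out. In Mct1f/fMb1Cre it was 3.11, 2.29, 2.78, 3.14, 3.07 and 2.86 to 2.99 under the same settings. The median of the 5 LXR and efflux genes was -3.48, -1.31, -2.93, -2.67, -2.36 and -2.92 to -2.70 in Mb1Cre, and -2.96, -1.40, -2.97, -2.62 and -2.45 under the first 5 of these settings in Mct1f/fMb1Cre. The pseudocount of 5 lowered it by construction, since Abca1 and Nr1h3 were below 1 FPKM on day 3. The median of all genes moved from -0.12 to -0.31 at equal totals and to 0.065 with median-of-ratios scaling in Mb1Cre.

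Between the genotypes, 0 members were called on day 3 except without a limit on the fold change, with 2 higher and 2 lower. In the interaction 2 members were called higher with a pseudocount of 0.1 and 1 at equal totals, 0 to 2 when single libraries were left out, and 2 higher and 1 lower without a limit. Without Mb1Cre day 0 replicate 1 these were Mylip and Abcg1, without Mct1f/fMb1Cre day 0 replicate 1 Abcg1 and without Mb1Cre day 3 replicate 2 Mylip, and the cause was not tested. Abcg1 and Insig2 lost the adjusted p on day 3 without Mb1Cre day 3 replicate 1 (0.0661 and 0.0701 from limma). With the replicate number as a block, 23 members were higher and 7 lower in each genotype, 0 were called between the genotypes, and Insig2 had an adjusted p of 0.0947. The correlation across genes of the deviations of same-numbered libraries lay between -0.12 and 0.064. Between groups of 2 libraries both numbers give the same value, so that these correlations cannot decide whether same-numbered libraries share a mouse or batch. A crossed pairing in Mb1Cre, chosen after seeing the data, also gave 23 and 7. Fits without 1 library of a pair leave that group with 1 library, which is assumed to vary like those of the other groups. The read depth behind the FPKM is unknown.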

Other observations

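The remaining marker lists describe the other cells that the libraries could hold. All 8 neutrophil markers were lower on day 3 in both genotypes, with S100a9 at 166 to 514 FPKM on day 0 and at 0 to 1.91 FPKM on day 3. Of 7 tested markers of T and NK cells, all fell, and Cd4 was at 13.7 to 15.0 FPKM on day 0 and at 0 to 0.07 FPKM on day 3. Of 4 tested erythroid markers 3 fell in Mb1Cre and 4 in Mct1f/fMb1Cre. Among 5 dendritic cell markers 3 and 4 fell, respectively. In Mb1Cre, Flt3 (log2 fold change 0.39, adjusted p = 0.00479 from limma) and Zbtb46 (0.304, adjusted p = 0.0137) rose instead, both below the limit of 0.5. The dendritic cell list thus did not move as one in Mb1Cre. In Mct1f/fMb1Cre the log2 fold change was -1.13 for Flt3 and -0.305 for Zbtb46, which was not called. Of 7 tested B cell markers 6 were called lower in each genotype but remained at 84.6 FPKM or more, the level of Pax5.

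Between the genotypes on day 3, 2 dendritic cell markers were called lower in Mct1-deficient B cells. Flt3, a receptor kinase, was at 17.6 and 17.4 FPKM in Mb1Cre and 6.67, 6.96 and 7.41 FPKM in Mct1f/fMb1Cre (log2 fold change -1.21, adjusted p = 3.00e-05 from limma), and Zbtb46 differed by -0.60 (adjusted p = 0.00156). The other dendritic cell markers Itgax, Xcr1 and Siglech were below 0.5 FPKM in all 5 libraries. At these levels the scale leaves little room for a change.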
